A study of Mus musculus with 8 samples.

Results

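The phagocyte NADPH oxidase was followed through 5 genes, Cybb, Cyba, Ncf1, Ncf4 and Rac2, chosen by symbol as 5 of the 21080 gene symbols measured. RNA-seq was performed on bone marrow-derived macrophages (BMDMs, macrophages grown from marrow cells in M-CSF) of C57BL/6 mice. Nudt21-cKO mice were Nudt21 fl/fl with LysM Cre, a recombinase expressed from the lysozyme M locus in myeloid cells, which removes exons 2 and 3 of Nudt21. WT mice were littermates that also carried LysM Cre, so both genotypes express the recombinase. Each genotype was examined at 0 h, without stimulation, and at 4 h of LPS (50 ng/ml) given after a night in IFNγ (50 ng/ml). The 4 groups had 2 samples each, and each sample pooled BMDMs of 2 mice.

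The oxidase is the enzyme with which phagocytes turn oxygen into superoxide, the starting point of the oxidants used against ingested microbes. Its catalytic core sits in the membrane as a dimer of gp91phox (Cybb), which carries electrons from NADPH, and p22phox (Cyba), which stabilises gp91phox and docks the cytosolic subunits. In resting cells the organiser p47phox (Ncf1) and p40phox (Ncf4), which binds a phosphoinositide of the phagosome membrane, wait in the cytosol, and on stimulation they move to the membrane together with a Rac GTPase. Rac2 is the Rac protein of blood cells and Rac1 the one found in nearly all cells. Loss of the enzyme causes chronic granulomatous disease. Rac1 is given beside the 5 genes as the alternative GTPase.

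In the GRCm38 mouse genome (GENCODE M21), the genes lie at chrX:9435252-9487771 (Cybb), chr8:122424776-122432930 (Cyba), chr5:134220053-134229625 (Ncf1) and chr15:78559167-78572783 (Rac2), all on the minus strand, and at chr15:78244801-78262580 on the plus strand (Ncf4). Nudt21 encodes CFIm25, a subunit of cleavage factor Im, which is known to bind UGUA in pre-mRNA and to guide the choice of polyadenylation site. The UGUA nearest the annotated mRNA end was therefore read for each gene from the RefSeq-matched GENCODE transcript with the longest 3′UTR, and is shown in capitals with up to 8 bases before and 9 after it.
Cybb: aucacggaUGUAaagcacauc
Cyba: uugcucacUGUAauaaacaug
Ncf1: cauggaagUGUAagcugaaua
Ncf4: gagacugaUGUAagaugcaaa
Rac2: cccccuucUGUAggaggcaaa

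These UGUA tetramers start 55 bases before the annotated 3′ end in Cybb, 26 in Cyba, 28 in Ncf1, 105 in Ncf4 and 145 in Rac2. Cybb, Cyba and Ncf1 thus hold one within the last 100 bases, as do 53.4% of the 17827 genes with a 3′UTR of at least 100 bases. The 3′UTRs differ widely in length. That of Cyba has 102 bases and 1 UGUA, that of Ncf4 189 bases and 1, that of Ncf1 1490 bases and 8, that of Rac2 2321 bases and 4, and that of Cybb 2965 bases and 13, against a median of 858 bases and 4 UGUA over 19282 genes. These matches describe the letters of the annotated mRNA, and 3′UTR usage was not analysed here.

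The promoters were read because PU.1 (Spi1) and interferon regulatory factors (IRF) are known regulators of phagocyte oxidase genes. RefSeq windows of 300 bases (250 before to 50 after the gene start, GRCm38.p6) were at hand for 3 of the 5 genes, Cybb, Cyba and Ncf1. The RefSeq start of Cybb, base 9469324, is that of 1 of its 5 GENCODE transcripts and lies 18447 bases inside the GENCODE gene span given above. Both strands were searched for GAGGAA (PU.1 core) and AANNGAAA (IRF core), which 28.3% and 23.9% of all 32851 windows contain. The first and second lines below show Cybb, with the PU.1 core and then the IRF core in capitals, both on the strand opposite to the gene. The third line shows the IRF core of Ncf1.
Cybb PU.1, chrX:9469299-9469326: gctgttttcatTTCCTCatcagaagaag
Cybb IRF, chrX:9469304-9469331: aagctgctgtTTTCATTTcctcatcaga
Ncf1 IRF, chr5:134229688-134229715: aattctcagaAAGTGAAAgactaagtct

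Counted from the start base as 0, the Cybb IRF core spans 3 to 10 and the PU.1 core 9 to 14, so these cores share bases. The Ncf1 IRF core spans -80 to -73. The Cybb window holds 6 IRF core matches in all, of which 2 share bases with each other, and 4 of the 32851 windows, that of Cybb included, hold at least as many. The Cyba window holds neither letter string.

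The values were taken as read coverage averaged over the bases of a gene, a unit that the tables do not name, and levels were compared between genes on that per-base scale. No scaling between samples is stated. Summed over all genes, coverage ran from 14950347 to 17954882 per sample, and both cKO samples exceeded both WT samples at each time. Nudt21 served to check the labels. At 4 h it was covered 547 and 575 times in WT against 142 and 115 in cKO, and at 0 h 718 and 641 against 158 and 172, with exons outside the deletion included in the value. Of 8 macrophage markers none was at 0 in both samples of any group, and Csf1r, the M-CSF receptor, ran from 13055 to 44260. Lyz2, which encodes lysozyme M, ran only from 455 to 1375. Genes of B cells, T cells and erythroid cells summed to at most 143 per list and fibroblast genes to at most 203, and 3 dendritic cell genes to at most 60.9. Among these low genes, Cd79b of B cells and Alas2 of erythroid cells were called lower in cKO at 0 h (a fold change above 1.5 with an unadjusted p under 0.05 by limma), and of the dendritic cell genes at 4 h Zbtb46 was called higher, with a log2 fold change of 1.53, and Xcr1 lower, with -3.17. The 11 neutrophil genes summed to more. Their summed coverage at 0 h was 24804 to 27402 in WT against 29182 to 38488 in cKO, and at 4 h 18161 to 22426 against 22882 to 25991. S100a8, S100a9 and Ngp made up most of it, and Ly6g, the defining surface marker, did not exceed 7.37 in any sample. Cxcr2 did not exceed 17.6, while Ltf ran from 506 to 2199, Camp from 368 to 688 and Elane from 90.2 to 446.

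Both membrane subunits were among the most highly covered genes of the cells. Cybb ranked within the top 0.574% of genes in every group and Cyba within the top 0.896%. Ncf1 and Rac2 lay within the top 2.60% and 3.89%, and Ncf4 within the top 7.17%. At 0 h in WT the mean coverage was 21085 ± 2466 (SD, n = 2) for Cyba and 19055 ± 3538 (SD, n = 2) for Cybb, and the samples of these 2 genes overlapped. Ncf1 followed with 6435 ± 205 (SD, n = 2), Rac2 with 5742 ± 18.5 (SD, n = 2) and Ncf4 with 3622 ± 334 (SD, n = 2). In cKO at 0 h Cyba stood above Cybb without overlap, and Ncf1 and Rac2 overlapped. At 4 h the order in both genotypes was Cybb, Cyba, Ncf1, Rac2 and Ncf4, with no overlap between neighbours. In the plot of coverage by sample, the sharpest separation of the genotypes is that of the membrane subunits at 4 h.

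**Figure D1:**
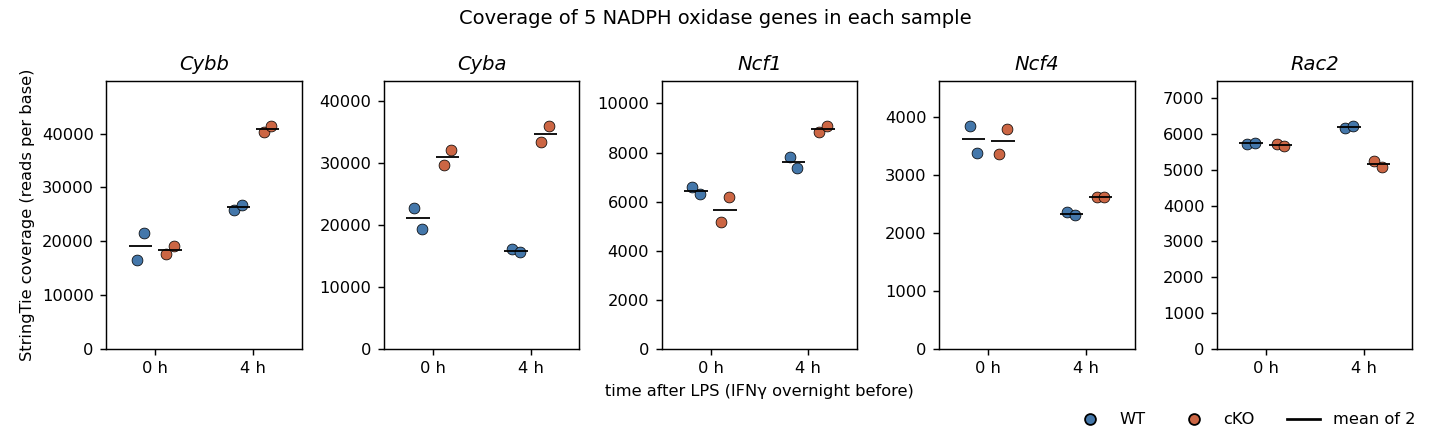
Coverage per base (y axis, linear, from 0) of each gene in the 8 samples at 0 h and 4 h (x axis), WT in blue and cKO in orange, with a line at the mean of 2 samples. Cyba separates the genotypes at each time with cKO above WT, Cybb only at 4 h, and Rac2 is lower in both cKO samples at 4 h without being called on this scale.

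Whether loss of Nudt21 altered the oxidase genes of stimulated macrophages was examined first. At 4 h Cybb and Cyba were higher in cKO by the rule of the study's methods, a fold change above 1.5 with an unadjusted p under 0.05, while Ncf1, Ncf4 and Rac2 were not called. Thus 2 of 5 genes were called higher and 0 lower, where 20.8% of the 14950 genes tested were called higher and 4.17% lower. On the log2 scale the median difference was 0.24 over the 5 genes and 0.31 over all genes. Because the median gene was itself shifted, values after centring each sample on its median are given beside those on the deposited scale. With centring, 10.4% of genes were called higher and 9.90% lower, and among the 5 genes Cyba was called higher and Rac2 lower.

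Cyba showed the largest difference of the 5. Its coverage at 4 h was 16049 and 15567 in WT and 33381 and 36086 in cKO. Both cKO samples lay far above both WT samples, by 2.2-fold, and the log2 fold change was 1.13 (standard error, SE, 0.11, Benjamini-Hochberg adjusted p = 0.0489 by limma). At an adjusted p under 0.05, 3.33% of all genes were called higher, and Cyba was the 1 of the 5 that was. With centring, the log2 fold change was 0.80 and Cyba was still called by the fold and unadjusted p, but its adjusted p was 0.107 by limma.

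Cybb coverage at 4 h was 25794 and 26734 in WT and 40296 and 41487 in cKO. The genotypes did not overlap and differed by 1.56-fold, with a log2 fold change of 0.64 (SE 0.10, adjusted p = 0.0665 by limma). With centring the log2 fold change of Cybb was 0.30 and after scaling to equal total coverage, which had been higher in cKO, it was 0.43, and neither was called. Leaving out replicate 4 of cKO gave 0.62 without a call.

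The cytosolic subunits differed less. Ncf1 coverage at 4 h was 7834 and 7370 in WT and 8841 and 9097 in cKO, without overlap, and its log2 fold change was 0.24 (SE 0.10, adjusted p = 0.222 by limma) on the deposited scale and -0.10 with centring. Ncf4 coverage was 2357 and 2313 in WT and 2624 and 2620 in cKO, also without overlap, with a log2 fold change of 0.17 (adjusted p = 0.320 by limma) that became -0.17 with centring. Neither gene was called on either scale.

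On the deposited scale the GTPases differed in opposite directions, and neither was called. Rac2 coverage at 4 h was 6179 and 6237 in WT and 5241 and 5080 in cKO, so that both cKO samples were lower. Its log2 fold change was -0.27 (SE 0.10, adjusted p = 0.176 by limma), whereas with centring it was -0.60 and was called lower. Rac1 coverage was 6223 and 6123 in WT and 7923 and 8318 in cKO, with a log2 fold change of 0.40 (adjusted p = 0.107 by limma) that stayed under the fold threshold and was 0.058 with centring.

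The neutrophil gene list stood beside these results. In cKO at 4 h, 1 of its 11 genes was called higher (Camp, an antimicrobial peptide), 1 at 0 h (Mmp8, a granule collagenase), against 20.8% and 8.99% of all genes. With centring Camp was not called at 4 h, and Mpo, myeloperoxidase, was called lower with -0.71. The summed levels given above did not overlap between genotypes at either time, but they were not scaled to total coverage, which was also higher in cKO. The macrophage markers at 4 h summed to 64070 to 65060 in WT and 70588 to 75278 in cKO, also without overlap. At 0 h their sums overlapped, with 120530 to 129084 in WT and 123746 to 132928 in cKO. Of the 8 macrophage markers, 2 were called higher in cKO at 4 h, Cd68 with a log2 fold change of 1.07 and Lyz2 with 0.82, and 0 lower, and with centring 1 was called higher and 2 lower. Lyz2 is also the locus from which the Cre is expressed in both genotypes. At 0 h Cd68 was called higher, with 0.69, and Adgre1 and Fcgr1 lower, with -0.66 and -0.89, against 8.99% and 5.61% of all genes. With centring 1 of the 8 was called higher and 3 lower at 0 h, against 7.25% and 6.98% of all genes. The part of these lists in the differences of Cybb and Cyba was not tested. In such bulk samples, fewer cells of a type and less RNA per cell cannot be told apart. By the study's methods the samples of a group are pools of 2 mice, and p-values measure only the spread between these pools.

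In unstimulated BMDMs 0 of the 5 genes were called, where 8.99% of the 16251 genes tested were called higher and 5.61% lower in cKO. At an unadjusted p under 0.05 from limma the count was 1, Cyba, where 21.3% of all genes passed in either direction. Its coverage at 0 h was 22829 and 19341 in WT and 29770 and 32127 in cKO, so both cKO samples were higher. The log2 fold change was 0.56 (SE 0.14, adjusted p = 0.191 by limma), a fold of 1.47 that lay just under the threshold. Leaving out replicate 1 of WT raised it to 0.68, which was called.

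For Cybb the genotypes overlapped at 0 h. Its coverage was 16553 and 21556 in WT and 17681 and 19083 in cKO, with a log2 fold change of -0.04 (SE 0.19). Ncf1 coverage was 6580 and 6291 in WT and 5157 and 6195 in cKO, lower in both cKO samples, with a log2 fold change of -0.19 (adjusted p = 0.514 by limma) that was -0.054 without replicate 3 of cKO and -0.32 without replicate 4. Ncf4 coverage was 3858 and 3385 in WT and 3376 and 3796 in cKO, and the groups overlapped, with a log2 fold change of -0.01. Rac2 coverage was 5729 and 5755 in WT and 5724 and 5663 in cKO, also with a log2 fold change of -0.01. The median log2 fold change was -0.01 over the 5 genes and 0.10 over all genes.

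**Figure D2:**
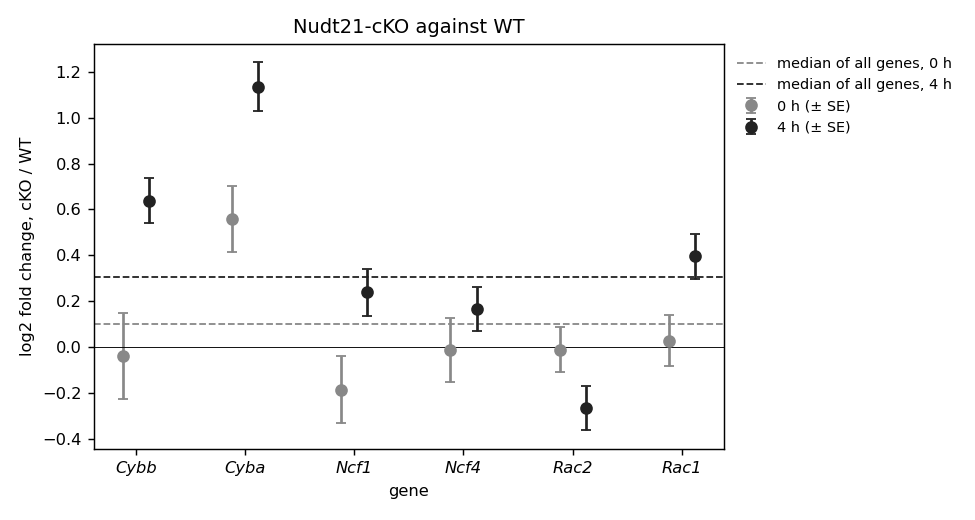
log2 fold change of cKO against WT (y axis) with its standard error, at 0 h in grey and 4 h in black, for the 5 genes and Rac1 (x axis), with dashed lines at the median of all genes tested. Cyba lies above the median at both times and Cybb only at 4 h, while Rac2 lies at -0.27 at 4 h, below the median of 0.31.

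Whether the genotype difference itself changed with stimulation was tested with an interaction term fitted to the 8 samples. At an adjusted p under 0.05 from limma, 0 of the 5 genes passed, where 2.28% of the 16284 genes passed with a higher and 0.761% with a lower cKO difference at 4 h. At an unadjusted p under 0.05 the count was 2, where 22.1% of all genes passed in either direction. The interaction was 0.68 for Cybb (SE 0.21, adjusted p = 0.159 by limma) and 0.58 for Cyba (SE 0.17, adjusted p = 0.147 by limma) on the log2 scale. It was 0.43 for Ncf1, 0.18 for Ncf4 and -0.25 for Rac2, with adjusted p between 0.240 and 0.567 by limma. So the call of Cybb at 4 h and its absence at 0 h do not by themselves show a difference between the times. The median over all genes was 0.20. With centring the interaction was 0.41 for Cybb, 0.31 for Cyba, 0.16 for Ncf1, -0.08 for Ncf4 and -0.52 for Rac2, and 0 passed.

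The response to IFNγ and LPS was then compared between 0 h and 4 h within each genotype. These comparisons share samples with those of the genotypes. Most genes had lower coverage at 4 h, with a median log2 fold change of -1.27 in WT and -1.05 in cKO, so the 5 genes stood above the median gene in both. In WT 1 of the 5 genes was called lower, Ncf4, and 0 were called higher at 4 h, where 55.1% of the 16002 genes were called lower and 11.9% higher. In cKO 2 were called higher, Cybb and Ncf1, and 0 lower, where 53.2% of the 16223 genes were called lower and 13.7% higher. At an unadjusted p under 0.05 by limma, Ncf4 alone passed in WT, and Cybb, Ncf1 and Ncf4 passed in cKO, as did 69.6% and 73.2% of all genes in either direction. After centring, all 5 were called higher in both genotypes, where 33.5% of genes were in WT and 32.7% in cKO.

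Cybb had 1.39-fold the 0 h coverage at 4 h in WT, and both 4 h samples exceeded both 0 h samples. The log2 fold change of 0.48 (SE 0.19, adjusted p = 0.118 by limma) was not called, and without replicate 2 of WT at 0 h, the higher of the pair, it was 0.67 and was called, while without replicate 1 it was 0.28 and was not. In cKO Cybb rose 2.23-fold, with a log2 fold change of 1.15 (SE 0.09, adjusted p = 0.00374 by limma). Ncf1 rose in cKO, with a log2 fold change of 0.67 (adjusted p = 0.0257 by limma) that was no longer called without replicate 3 of cKO at 0 h, where it was 0.53, or without either cKO sample at 4 h, where it was 0.69 and 0.65. In WT the Ncf1 value was 0.24. With centring the values were 1.93 in WT and 2.36 in cKO for Cybb, and 1.69 and 1.87 for Ncf1.

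Cyba behaved otherwise on the deposited scale. In WT both samples at 4 h lay below both at 0 h, with a log2 fold change of -0.41 (adjusted p = 0.0985 by limma), and in cKO both lay above, with 0.17 (adjusted p = 0.235 by limma). Neither was called, and with centring they were 1.04 and 1.37. Ncf4 fell by 0.63 on the log2 scale in WT (adjusted p = 0.0325 by limma), against an uncalled difference of -0.45 in cKO, and with centring the values became 0.82 and 0.75. The call of Ncf4 in WT was lost without replicate 1 at 0 h, where the value was -0.54, and without either WT sample at 4 h, where it was -0.64 and -0.62. Rac2 differed by 0.11 in WT and -0.14 in cKO, and by 1.56 and 1.06 with centring.

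**Figure D3:**
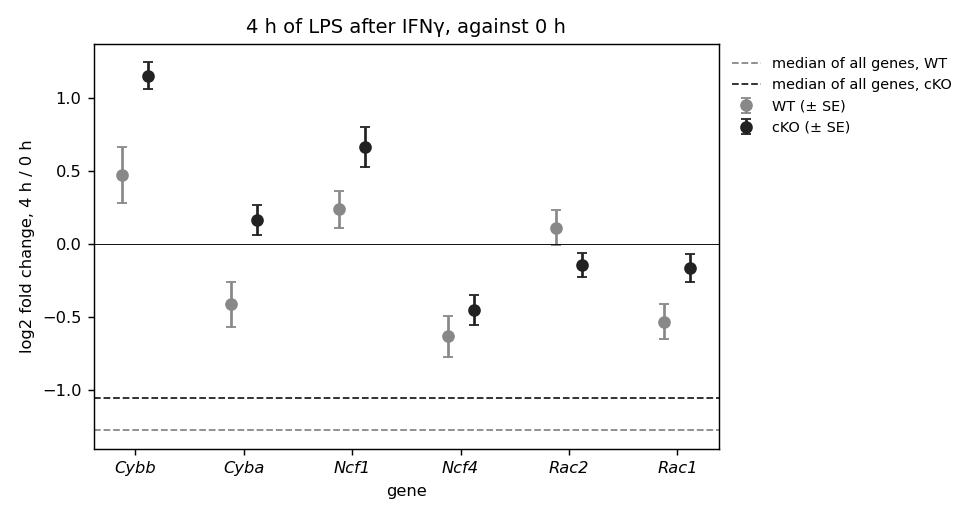
log2 fold change of 4 h against 0 h (y axis) with its standard error, in WT in grey and cKO in black, for the 5 genes and Rac1 (x axis), with dashed lines at the median of all genes, -1.27 in WT and -1.05 in cKO. Each gene lies above both medians, and Cybb in cKO is highest at 1.15.

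Ratios of 2 genes within a sample do not depend on its depth or centring and were compared for 3 pairs. At 4 h the ratio of Cybb to Cyba was 1.61 and 1.72 in WT and 1.21 and 1.15 in cKO, a log2 difference of -0.50. At 0 h the ratio of Cybb to Cyba was 0.725 and 1.11 in WT and 0.594 and 0.594 in cKO, a log2 difference of -0.60. Coverage of the catalytic subunit relative to its partner was therefore lower in both cKO samples at both times, and each sample at 4 h exceeded each sample at 0 h.

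The ratio of Rac2 to Rac1 at 4 h was 0.993 and 1.02 in WT and 0.661 and 0.611 in cKO, a log2 difference of -0.66. At 0 h it was 0.628 and 0.662 in WT and 0.655 and 0.600 in cKO, and the groups overlapped. The cKO samples at 4 h thus lay within the range of the 0 h samples, and the WT samples at 4 h above it. The ratio of Ncf1 to Ncf4 at 4 h was 3.32 and 3.19 in WT and 3.37 and 3.47 in cKO, above the range of 1.53 to 1.86 at 0 h. For the 3 pairs, exact two-sided permutation tests of the genotypes gave p = 0.33, the smallest that 2 against 2 samples allow, and p = 0.667 for Rac2 to Rac1 at 0 h.

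Overlapping genes bear on 2 of these values, since the library kit does not mark the strand. Rac1 shares 2309 exon bases with Daglb on the opposite strand, and Daglb coverage ran from 2852 to 3940 at 0 h and from 225 to 333 at 4 h. Its part in the Rac1 values was not tested. Ncf1 shares 408 exon bases with Gtf2ird2, whose coverage did not exceed 147. Cybb, Cyba and Ncf4 share none with another gene and have no stretch of at least 100 bases with 95% identity in transcripts of other genes. Rac2 has such stretches in 7 other genes, the longest of 124 bases.

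**Figure D4:**
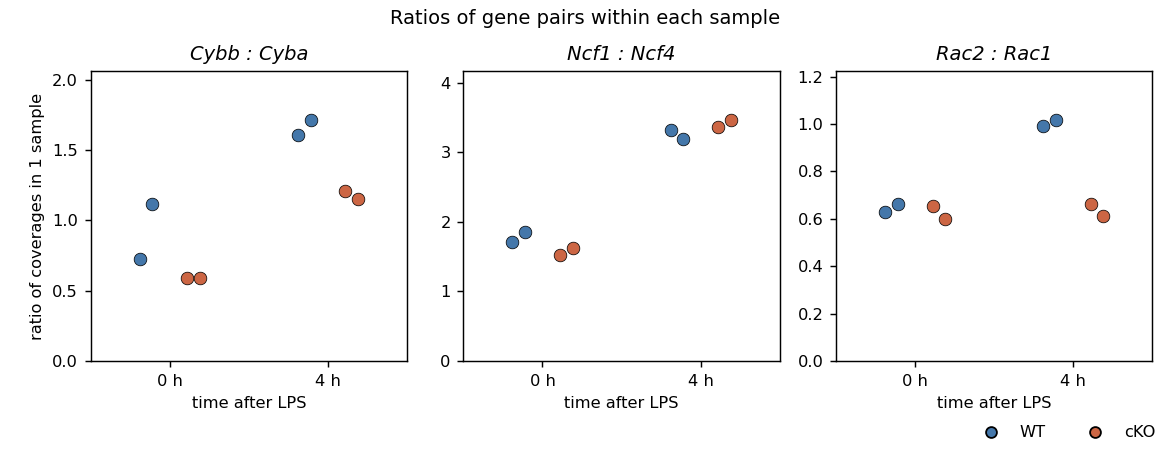
Ratio of the coverages of 2 genes in 1 sample (y axis, linear, from 0) at 0 h and 4 h (x axis), WT in blue and cKO in orange. The Rac2 to Rac1 ratio is 0.993 and 1.02 in WT at 4 h and between 0.600 and 0.662 in all other samples.

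Genes that work with the oxidase were examined as 5 lists of 63 genes, of which 58 had a row in the tables. Their counts at 4 h are read against the 20.8% of all genes called higher and 4.17% lower, or 10.4% and 9.90% with centring, and their medians against 0.31. Of 6 other NOX enzymes and partners tested at 4 h, 1 was called higher in cKO and 0 lower, a share near that of all genes. It was Hvcn1, the proton channel that balances the charge moved by the oxidase, with a coverage of 1035 and 1095 in WT and 2264 and 2586 in cKO and a log2 fold change of 1.18 (adjusted p = 0.0529 by limma). Cybc1, a chaperone of gp91phox, was at 338 and 367 in WT and 330 and 350 in cKO. Nox1 did not exceed 7.15 and Nox4 did not exceed 0.66 in any sample, so Cybb was the NOX catalytic subunit with high coverage among those measured.

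Among 16 Rac and Rap GTPases and their regulators 2 were called lower and 0 higher, with a list median of 0.037 on the log2 scale. Arhgap15, which switches Rac off, had a coverage of 1323 and 1507 in WT and 582 and 528 in cKO, and Vav3, which switches Rac on, 569 and 618 in WT and 328 and 264 in cKO. The log2 fold changes were -1.35 (adjusted p = 0.0499 by limma) and -1.01 (adjusted p = 0.0689 by limma). Arhgap15 passed the interaction test, with a value of -1.18 (adjusted p = 0.0411 by limma), and with centring it was -1.44 and still passed. Its genotype difference at 0 h was -0.17. With centring 0 of the 16 were called higher and 4 lower.

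Of 16 kinases and lipid enzymes, which include those that phosphorylate p47phox or make the lipids that p40phox binds, 3 were called higher, a share near that of all genes, and 2 lower, with a list median of 0.15 on the log2 scale. Prkcz, an atypical protein kinase C, had the largest called difference with a log2 fold change of 1.15, at a coverage of 31.0 or less at 4 h. Pik3cg, the catalytic subunit of PI3 kinase gamma, and Prkcb, protein kinase C beta, had log2 fold changes of -1.08 and -1.07. Prkcb coverage at 4 h was 441 and 519 in WT and 250 and 208 in cKO, and at 0 h 1675 and 2083 in WT and 848 and 880 in cKO, so it was lower in cKO at both times. With centring 0 of the 16 were called higher and 2 lower.

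The 9 transcription factors held 1 called higher, a smaller share than that of all genes. It was Cebpb, with a coverage of 5850 and 4915 in WT and 11412 and 13751 in cKO. The factors of the motifs searched are given with it. Spi1 was at 6233 and 5946 in WT and 4553 and 4412 in cKO, with a log2 fold change of -0.44 (adjusted p = 0.0953 by limma) that was not called, and of -0.78 with centring, which was called lower. Irf1 and Irf8 had log2 fold changes of 0.51 and -0.01 between genotypes and were not called, and both rose after stimulation in both genotypes, Irf1 by 4.18 in WT and 4.81 in cKO on the log2 scale.

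Enzymes that consume superoxide and peroxide had 5 of 9 called higher in cKO at 4 h and 0 lower, against 20.8% and 4.17% of all genes. Over the list the median on the log2 scale was 0.80, against 0.31 over all genes. With centring the list median was 0.46, and 2 were called higher and 1 lower, against 10.4% and 9.90% of all genes. Prdx1, a peroxiredoxin that reduces hydrogen peroxide, had a coverage of 44131 and 43480 in WT and 93038 and 104577 in cKO, with a log2 fold change of 1.17 (adjusted p = 0.0503 by limma). Its interaction was 1.10 (adjusted p = 0.0324 by limma), and with centring it was 0.84 and no longer passed (adjusted p = 0.108 by limma). Cat, the catalase gene, and Prdx5, a peroxiredoxin of several compartments, had log2 fold changes of 0.96 and 0.89. At 0 h 0 of the 9 were called, and across the 5 lists the calls at 0 h were Prkcd higher and Prkcb and Pik3cg lower, where 8.99% of all genes were called higher and 5.61% lower. With centring Prkcd, at 0.51, was not called at 0 h, and Prkce and Noxo1 were called lower too, with -0.69 and -0.66.

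**Figure D5:**
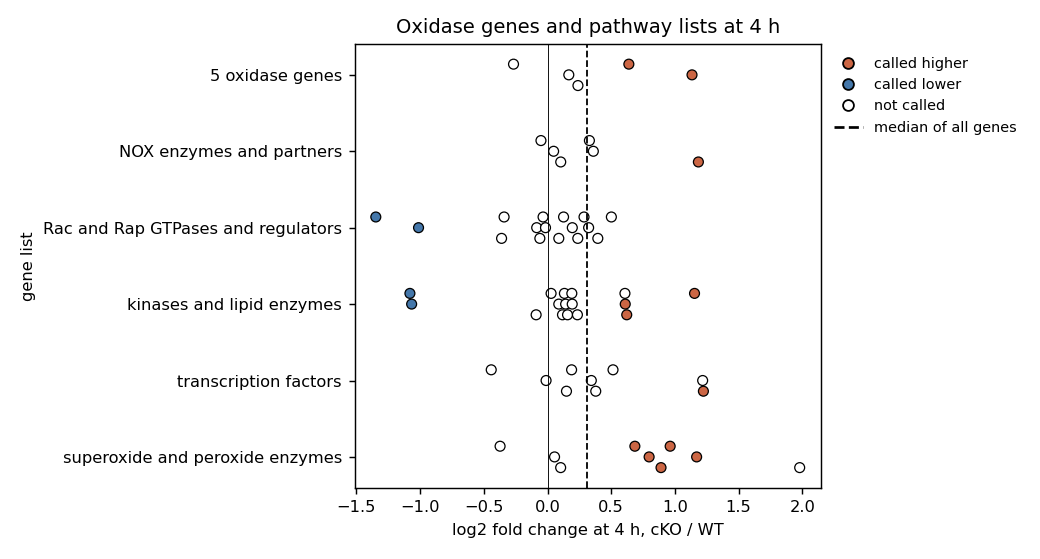
Genotype difference at 4 h as log2 of cKO over WT (x axis) for each tested gene of the oxidase and of 5 lists (y axis), with called genes filled in orange (higher) or blue (lower) and a dashed line at the median of all genes, 0.31. Called genes number 2 of 5 for the oxidase and 5 of 9 for the superoxide and peroxide enzymes, and the lists of regulators and kinases hold 2 genes each that are lower.

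Across the 8 samples, with log2 coverage centred on each sample's median, the genes most like each of the 5 were Uba1, Nr3c1 and Hspa9 for Cybb, Fabp3, Gng12 and Sh3bgrl3 for Cyba, Lmo4, Arhgap17 and Rab32 for Ncf1, Smox, Uqcr10 and Mrpl52 for Ncf4, and Lilr4b, Lyn and Abi1 for Rac2. Their Pearson correlations were between 0.995 and 0.999 over 12024 genes. The samples fall into 2 times, and between 1372 and 3908 genes had a correlation above 0.9 with each of the 5. Among the 5 themselves the correlation was highest for Ncf1 with Ncf4, at 0.986, and lowest for Cyba with Rac2, at 0.695.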

How the data were processed

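Per the labels and the study's methods, paired-end reads were aligned to mm10/GRCm38 with HISAT2 2.2.1 and quantified over RefSeq genes with StringTie 2.1.7 by the authors. The deposited values were taken as a coverage signal, the mean number of reads over each base of a gene, although the tables do not name their unit. Between 23.9% and 31.6% of values under 2, from genes with 1 transcript, gave whole bases (within 0.02) when multiplied by transcript length. The others did not, and no chance share was computed beside these. No scaling between samples is stated, the reads behind each value are unknown, and no count test or counting interval was computed. The authors' log2 fold change, p-value, FDR and call columns were not used. The 0 h samples were taken as unstimulated from their titles, although a label names the stimulation for all 8.

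Comparisons were made with limma 3.58.1 (R 4.3.3). Coverage was taken as log2(value + 0.1), the scale of all fold changes, and a gene entered a comparison if it averaged 0.5 or more across its samples. All 5 genes passed this filter in every comparison. Alternatives covered pseudocount, filter, scaling, variance trend, samples fitted, adjusted p and left-out samples. The method was tested on simulated data. Copies were sought with blastn 2.17.0. The 5 genes and the gene lists were chosen with earlier results of these data known. All 5 genes were named, as were the 3 largest called differences per list at 4 h, Nudt21, and genes a result turns on. Some genes and a motif were left out of the lists and searches and are not reported here.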

Additional observations from a re-analysis of the deposited data

Results flagged for a closer look

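The difference between genotypes changed from 0 h to 4 h in 2 of the genes named from the lists, by limma's interaction term with Benjamini-Hochberg adjustment over all genes. Of all 16284 genes, 2.28% passed with a higher and 0.761% with a lower cKO difference at 4 h. For Prdx1 the log2 difference was 0.07 at 0 h and 1.17 at 4 h, an interaction of 1.10 (adjusted p = 0.0324 by limma) that was 0.84 and no longer passed after centring each sample on its median (adjusted p = 0.108 by limma). For Arhgap15 it was -0.17 at 0 h and -1.35 at 4 h, an interaction of -1.18 (adjusted p = 0.0411 by limma) that was -1.44 and still passed after centring (adjusted p = 0.0171 by limma).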

How the results depend on the processing

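Cyba stayed called higher in cKO at 4 h, by fold and unadjusted p, under each alternative that was run. Its adjusted p by limma, 0.0489, was 0.0684 without the filter, 0.0775 at equal total coverage, 0.107 with centring and 0.0975 to 0.324 with a sample left out, so that call was lost there. It held at 0.0383 with a pseudocount of 1, 0.00553 with all 8 samples fitted and 0.000933 with a variance trend, and with the last pair Cybb passed too, at 0.0326 and 0.00288. Median-centring left 1 of the 5 genes higher and made 1 lower at 4 h, with log2 values of 0.30 for Cybb, -0.10 for Ncf1, -0.17 for Ncf4 and -0.60 for Rac2. At 0 h it gave -0.064 for Rac1, and for the Ncf4 interaction -0.085. After stimulation it made 5 genes higher and 0 lower in each genotype, with 1.04 for Cyba, 0.82 for Ncf4 and 0.92 for Rac1 in WT, and 0.75 for Ncf4, 1.06 for Rac2 and 1.04 for Rac1 in cKO. Equal total coverage left 1 gene higher at 4 h, with 0.43 for Cybb and -0.044 for Ncf4, and at 0 h gave -0.094 for Rac1, and it left 0 genes lower after stimulation in WT. Calling by an adjusted p under 0.05 with no fold threshold left 1 gene higher at 4 h, since Cybb, at 0.64, did not pass, and made 1 gene lower after stimulation in cKO, Ncf4, whose value of -0.45 is under the fold threshold. The cause of these changes was not tested.

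WT and cKO share no replicate number, so the genotype comparisons have no paired form. The numbers recur between 0 h and 4 h, and the study's methods do not say whether the same pools were split between the times. Over all genes tested, deviations of same-numbered samples correlated at only 0.0241 in WT and 0.0223 in cKO. That correlation includes genes of low coverage, so it cannot decide whether the samples were paired. Cybb, Cyba, Ncf1 and Rac2 had the same-numbered sample higher at both times in each genotype, and Ncf4 in WT only. With a replicate block the 5 genes gave 2 calls higher in cKO and 1 lower in WT after stimulation, as without it, and 0 interactions. With the replicate block the adjusted p by limma was 0.0221 for Cybb, 0.0544 for Ncf1 and 0.0843 for Ncf4 in cKO and 0.0727 for Ncf4 in WT, so that of Cybb alone stayed under 0.05. The replicate block with median-centring gave 5 higher and 0 lower in each genotype, and the same log2 values as centring alone: 1.04 for Cyba, 0.82 for Ncf4 and 0.92 for Rac1 in WT, 0.75, 1.06 and 1.04 for Ncf4, Rac2 and Rac1 in cKO, and -0.085 for the Ncf4 interaction.

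Leaving out each sample in turn assumes that the lone sample left varies like the other groups. The values at 4 h ran from 0.61 to 0.66 for Cybb, with 1 to 2 genes called higher. At 0 h they ran from 0.44 to 0.68 for Cyba, -0.23 to 0.15 for Cybb, -0.32 to -0.054 for Ncf1, -0.11 to 0.081 for Ncf4 and -0.028 to 0.085 for Rac1, with 0 to 1 called higher. After stimulation 1 to 2 genes were called higher in cKO, and in WT 0 to 1 higher and 0 to 1 lower. The library that removed the call of Cybb at 4 h was cKO replicate 4. Groups of 2 samples estimate their own spread poorly.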
